A study of Saccharomyces cerevisiae with 6 samples.

Results

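The 38 genes described here encode nuclear subunits of the respiratory chain and the ATP synthase of the budding yeast Saccharomyces cerevisiae. They were chosen by gene name and are 38 of the 5449 S. cerevisiae genes on the array. They comprise 3 NADH dehydrogenase genes, 4 succinate dehydrogenase genes, 9 genes of complex III, the cytochrome c gene CYC1, 9 genes of complex IV and 12 genes of the ATP synthase. The samples were 3 cultures of an rph1 deletion strain and 3 cultures of wild type, both in the W303 laboratory background, numbered 1 to 3 in each genotype. All 6 were grown at 30 °C in the glucose-rich medium YPD and collected in log phase. No further allele, the number of deletion isolates or a shared day of growth is given in the sources used here. The p-values therefore measure the spread between these cultures, which may in part be technical. The product of RPH1 binds DNA through zinc fingers and carries a JmjC domain, the fold of many histone demethylases. The comparison asks which genes depend on it.

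In yeast mitochondria, electrons enter the chain from NADH through single-protein dehydrogenases, which stand in for the proton-pumping complex I of animals, and from succinate through succinate dehydrogenase. Ubiquinone carries them to complex III, cytochrome c carries them on to complex IV, and complex IV reduces oxygen. Complexes III and IV pump protons out of the matrix, and the ATP synthase lets them back in to make ATP. Yeast in glucose mainly ferments, and many of these genes are known to be transcribed more strongly once glucose is used up, through the Hap2/3/4/5 activator.

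Each gene was read by 1 probe set, and the values are Affymetrix signal intensities on a linear scale. Differences are given on the log2 scale as deletion minus wild type, with the standard error (SE) from the limma fit to all genes tested. The background level was the 95th percentile of fission yeast probe sets, which lay between signals of 8.59 and 12.7 on single arrays. All 38 genes read above it on every array, so all 38 were among the 5402 genes tested. The deleted gene matched the labels, since RPH1 read 4.52, 8.18 and 8.99 in deletion cultures 1, 2 and 3, against 305, 362 and 385 in the wild-type cultures of the same numbers (limma adjusted p = 0.00196). Of the deletion arrays, 1 of 3 read above background, by a small margin. Array medians over all tested genes were 598.8 to 628.1. The replicate 1 arrays of both genotypes stood apart. Their deviations from the group means correlated at 0.768 with each other and at -0.689 to -0.549 with replicates 2 and 3 of the other genotype, so values are also given for each same-numbered pair. In the RefSeq gene order, 0 pairs of the 38 genes are immediate neighbours and 0 lie next to RPH1.

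As a whole, the 38 genes differed little between the genotypes, and the differences leaned towards higher signal in the deletion. Their log2 differences ran from -0.092 for ATP2 to 0.47 for NDE2, with a median of 0.045, against a median of 0.0012 over all genes tested. The difference was positive for 30 of 38, against 50.4% of all genes tested. For 29 genes it was under 0.1 in size, and the 95% interval lay within 0.5 of 0 for 36, the exceptions being NDE2 and QCR10. None of the 38 passed the test over all genes (0 genes by limma at an adjusted p of 0.05), where 2 of 5402 genes (0.037%) did. Both of these were lower in the deletion, the deleted gene RPH1 among them. With the replicate number as a block, 0 of the 38 and 6 of 5402 genes (0.111%) passed. A batch was inferred from the form of the sample code, replicate 1 against replicates 2 and 3. With this batch as a term, 0 of the 38 and 34 of 5402 genes (0.629%) passed. Array weights, whose estimation did not fully converge, gave 3 of the 38 (NDI1, NDE2 and SDH2) and 202 of 5402 genes (3.74%). At an unadjusted p under 0.05, 5 of the 38 were higher, against 4.33% of all genes, and 0 were lower, against 1.0%. These 5 were SDH2, SDH1 and SDH4 of succinate dehydrogenase and the NADH dehydrogenase genes NDI1 and NDE2. Without the succinate dehydrogenase genes, 2 of 34 (5.88%) were higher at that p. The count of higher genes among the 38 at that p depended on the version. It was 1 after median centring, 2 without deletion culture 3, 1 without wild-type culture 2 or wild-type culture 3, and 7 with array weights.

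**Figure D1:**
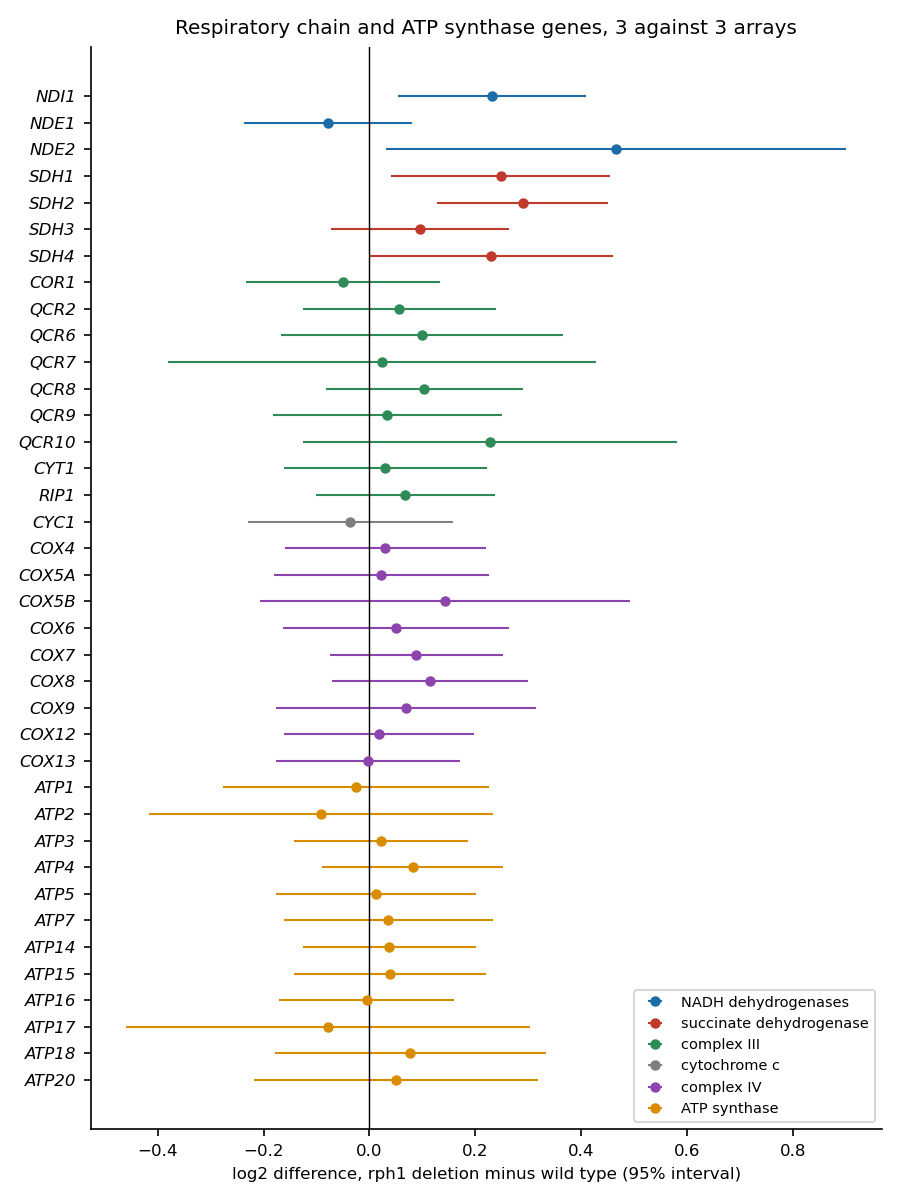
Log2 difference in signal, rph1 deletion minus wild type, for each of the 38 genes, coloured by complex, with the 95% interval of the limma fit to 3 against 3 arrays. The intervals of 5 genes (NDI1, NDE2, SDH1, SDH2 and SDH4) lie above 0, and most other genes lie within 0.1 of 0.

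The median of the 38 genes lay 0.043 above that of all genes. Centring each array on its median lowers every gene's difference alike, here by 0.036, so it moves the zero point and leaves that distance at 0.043. In that scaling 21 of 38 were higher with a median of 0.0086, where 36.8% of all genes were higher and their median was -0.035. After quantile normalization 33 of 38 were higher with a median of 0.058, against 45.9% of all genes and a median of -0.0094. Within the pairs of same-numbered arrays the median was 0.094, 0.041 and 0.040 for numbers 1, 2 and 3, and 30, 23 and 26 genes were higher. Within replicates 2 and 3 alone 23 of 38 were higher with a median of 0.033, against 49.1% of all genes. Every deletion array read above every wild-type array for 6 genes of the 38, where 7.55% of all genes did. Without the succinate dehydrogenase genes it was 2 of 34 (5.88%). Every deletion array read below for 1 gene, NDE1, where 3.04% of all genes did. The deletion was higher in all 3 pairs for 12 of the 38, against 19.9% of all genes, and lower in all 3 for NDE1 alone, against 14.7%.

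**Figure D2:**
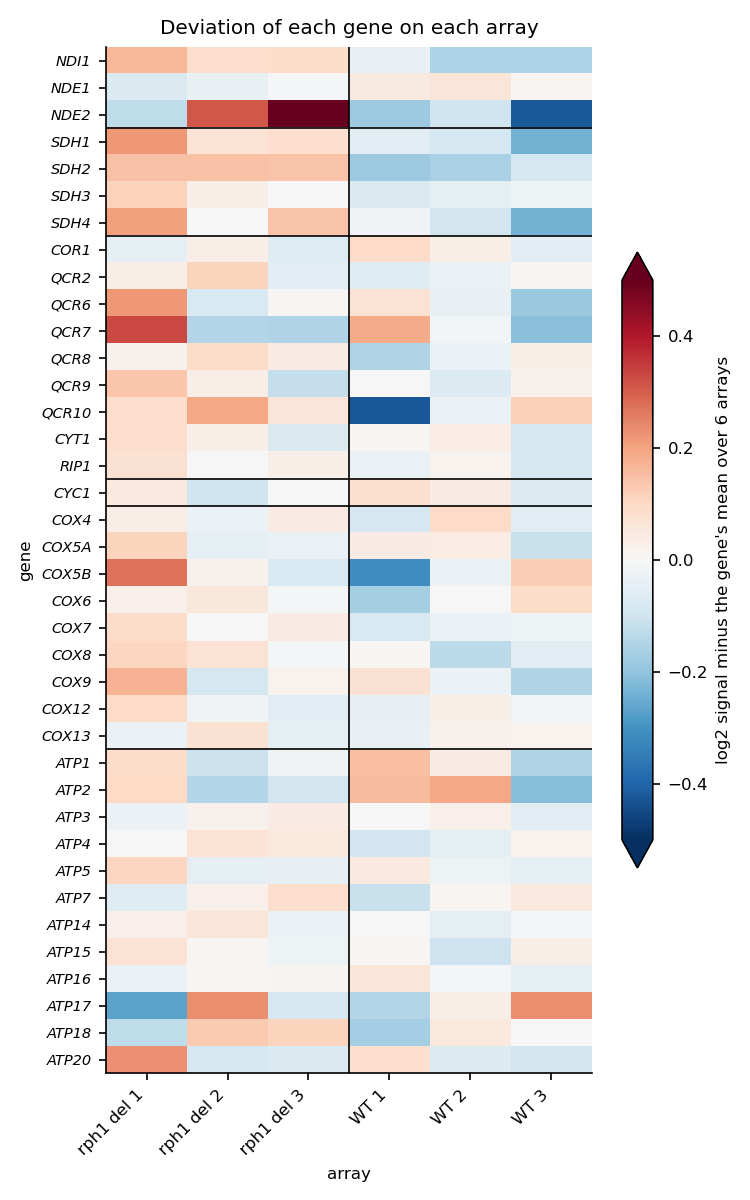
Log2 signal of each gene on each array, as the deviation from that gene's mean over the 6 arrays, with deletion arrays left of wild-type arrays and horizontal lines between complexes. The succinate dehydrogenase genes and NDI1 read higher on all 3 deletion arrays. QCR7 and ATP17 differ more between replicate 1 and the other arrays than between the genotypes.

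The NADH dehydrogenases did not move together. NDI1 encodes the enzyme on the matrix side of the inner membrane, which passes electrons from matrix NADH to ubiquinone. Its signal was 995, 943 and 947 in deletion cultures 1, 2 and 3, against 866, 795 and 798 in wild-type cultures 1, 2 and 3. The groups did not overlap, the pairs differed by 0.20, 0.25 and 0.25, and the log2 difference was 0.23 (SE 0.074), with an adjusted p of 0.630 by limma. NDE1 encodes the main external enzyme, which faces the intermembrane space and oxidises cytosolic NADH. It read 3609.7, 3696 and 3774 in the deletion, against 3916, 3956 and 3823 in wild type, a log2 difference of -0.078 (SE 0.066) with a 95% interval of -0.24 to 0.081. All of its deletion arrays lay below all of its wild-type arrays, but by a small margin. NDE2 encodes the second external enzyme. Its signal was far nearer to background, at 35.9, 48.7 and 56.2 in the deletion, against 34.7, 36.6 and 29.4 in wild type. The deletion value of replicate 1 fell within the wild-type range, and those of replicates 2 and 3 lay above it. The log2 difference of 0.47 (SE 0.18) had an interval of 0.031 to 0.90 and did not pass (limma adjusted p = 0.843), and the 3 pairs gave 0.051, 0.41 and 0.94. It was 0.26 with an offset of 32 added to every signal, below that of SDH2 (0.28), and ran from 0.32 without deletion culture 3 to 0.65 without deletion culture 1.

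In succinate dehydrogenase all 4 genes read higher on every deletion array than on any wild-type array. Over all genes tested 7.55% did so. It was the only complex with more than a single gene in which every measured gene did. This enzyme works both in the chain and in the tricarboxylic acid cycle. Its median log2 difference was 0.24, and 0.25, 0.12 and 0.28 within pairs 1, 2 and 3. Whether it differed from the other complexes was not tested.

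SDH2, encoding the iron-sulfur subunit, read 1902, 1899.8 and 1895 in the deletion, against 1515, 1533 and 1615 in wild type. The deletion cultures averaged 1899 ± 3.57 and the wild-type cultures 1554 ± 53.0 (SD, n = 3 each), so the deletion values were close to identical and the wild-type values more spread. The log2 difference of 0.29 (SE 0.067), interval 0.13 to 0.45, had the smallest p of the 38 genes, and did not pass (limma adjusted p = 0.429, or 0.144 with the replicate block). SDH1 encodes the flavoprotein that holds the catalytic site. It read 2246, 2025 and 2049 in the deletion, against 1862, 1819 and 1641 in wild type, a log2 difference of 0.25 (SE 0.086) and an adjusted p of 0.702 by limma. Its lowest deletion value exceeded its highest wild-type value. SDH4, 1 of the 2 membrane anchor subunits, read 2232, 1929 and 2134 in the deletion, against 1912, 1815 and 1640.3 in wild type. Here the groups came within a narrow gap, between deletion culture 2 and wild-type culture 1, and the log2 difference was 0.23 (SE 0.10). SDH3, the anchor subunit that helps bind heme, read 1515, 1432 and 1399.6 in the deletion, against 1330.3, 1359 and 1375 in wild type. Its log2 difference of 0.10 (SE 0.070) was the smallest of the 4, with an interval of -0.072 to 0.26. All 4 genes stayed higher in the deletion after quantile normalization (median 0.25), after median centring (0.20) and within replicates 2 and 3 alone (0.24).

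**Figure D3:**
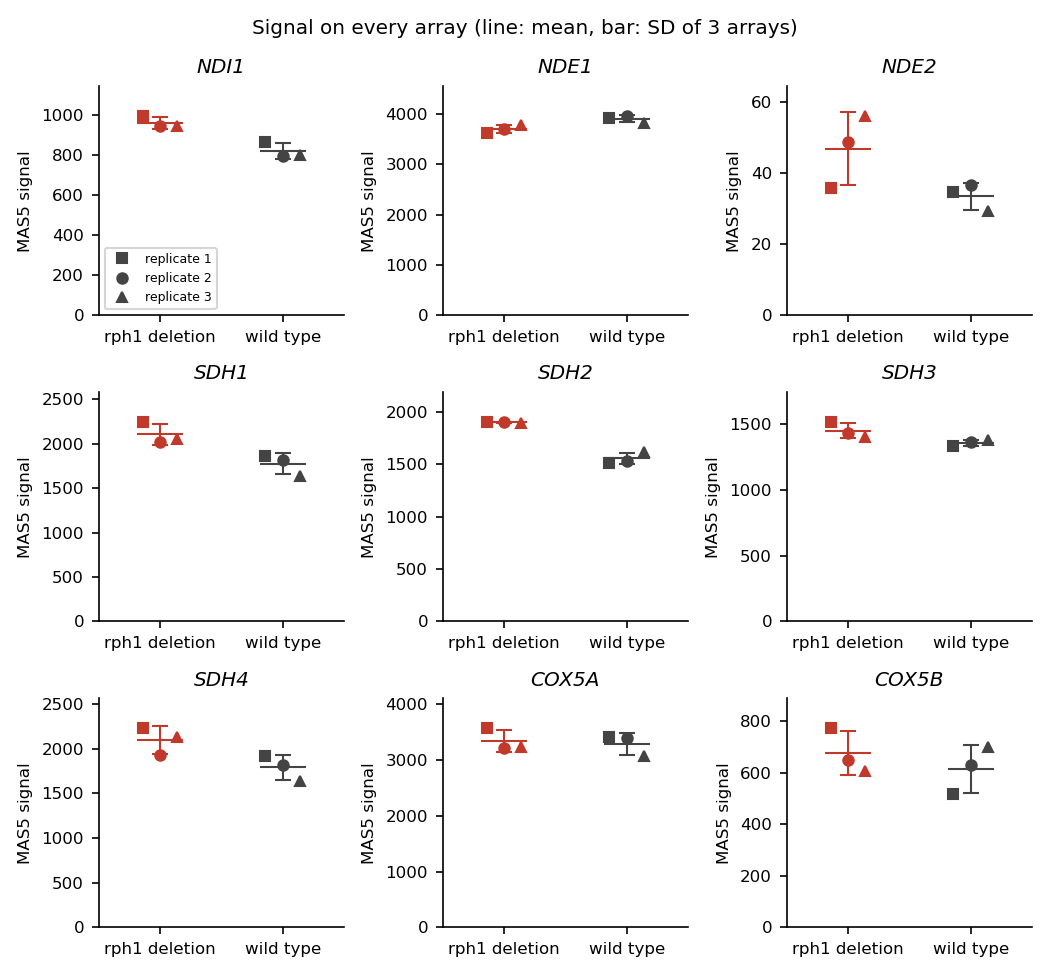
Signal of the NADH dehydrogenase, succinate dehydrogenase and COX5 genes on every array, rph1 deletion left of wild type, with marker shape for the replicate number, the mean as a line and the SD of 3 arrays as a bar. NDI1 and the 4 succinate dehydrogenase genes show groups that do not overlap, NDE1 lies lower in the deletion, and COX5A and COX5B overlap.

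Complex III genes showed no difference that could be told from the spread between arrays. The complex takes electrons from ubiquinol to cytochrome c. Of 9 genes 8 had a positive difference, against 50.4% of all genes tested, with a median of 0.057. After median centring 5 did, against 36.8% of all genes. None had an unadjusted p under 0.05 (0 genes). The groups overlapped for all 9. The median was 0.015 without deletion culture 1, where 5 of 9 were higher, and 0.10 without deletion culture 3. Among the redox-active subunits, RIP1, the Rieske iron-sulfur protein gene, read 3255, 3084 and 3155 in the deletion, against 3023, 3126 and 2911 in wild type, a log2 difference of 0.068 (SE 0.070). CYT1, encoding cytochrome c1, differed by 0.030 (SE 0.080). The core protein genes COR1 and QCR2 differed by -0.050 (SE 0.076) and 0.057 (SE 0.076).

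The small subunits of complex III, which carry no redox centre, were less even between arrays. QCR10 read 2885, 3102 and 2834 in the deletion, against 2022, 2651 and 2949 in wild type. Wild-type culture 1 was low and wild-type culture 3 within the deletion range. Its log2 difference of 0.23 (SE 0.15) therefore had a wide interval, -0.13 to 0.58, and the pairs gave 0.51, 0.23 and -0.057. Without wild-type culture 1 the difference was 0.071. QCR8, at 4544, 4759 and 4605 in the deletion against 4030.4, 4369 and 4557 in wild type, was higher within each pair, by 0.17, 0.12 and 0.015, although the groups overlapped slightly (log2 difference 0.10 (SE 0.077)). QCR6, an acidic subunit near the cytochrome c docking site, read 3482, 2839.9 and 3011 in the deletion and 3147, 2922 and 2637 in wild type (log2 difference 0.10 (SE 0.11)). That difference was 0.015 without deletion culture 1. QCR7 was highest on the replicate 1 arrays of both genotypes, at 5085, 3654 and 3638 in the deletion and 4593, 4003 and 3497 in wild type. Its genotype difference of 0.024 (SE 0.17) was small beside its difference of 0.39 between replicate 1 and the other 4 arrays. QCR9 differed by 0.034 (SE 0.090) between genotypes.

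CYC1, encoding the main form of cytochrome c, read 3521, 3176 and 3398 in the deletion, against 3599, 3506 and 3247 in wild type. The groups overlapped, and the log2 difference was -0.036 (SE 0.080) with an interval of -0.23 to 0.16 (0.0048 without deletion culture 2). CYC7 encodes the minor form, known to be more abundant under low oxygen, and is not among the 38. It read 1149, 416 and 393 in the deletion, against 580.1, 422 and 445 in wild type. Deletion culture 1 stood far above the other 5. Deletion cultures 2 and 3 lay below every wild-type array, culture 2 by a small margin. The log2 difference was 0.26 (SE 0.42), and -0.24 without deletion culture 1.

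Complex IV genes were nearly level. This enzyme, cytochrome c oxidase, has a catalytic core encoded in mitochondrial DNA, surrounded by the nuclear subunits measured here. The median log2 difference was 0.051, and 8 of 9 were positive, against 50.4% of all genes tested. After median centring 5 were positive, against 36.8% of all genes, and after quantile normalization 9, against 45.9%. The median was 0.11 in the replicate 1 pair, where all 9 were higher. It was -0.0075 within replicates 2 and 3, where 3 of 9 were higher, against 49.1% of all genes. COX4, COX5A, COX5B, COX6 and COX12 were then negative, together with COX13, which was negative over all arrays. None had an unadjusted p under 0.05 (0 genes). COX8, a small membrane subunit, read 3983, 3887 and 3666 in the deletion, against 3724, 3373 and 3564 in wild type, and was higher within each pair (log2 difference 0.11 (SE 0.077)). COX7, also a small membrane subunit, read 3647, 3421 and 3525 in the deletion, against 3246, 3343 and 3369 in wild type (log2 difference 0.089 (SE 0.068)). It was the only gene of complex IV whose groups did not overlap, where 7.55% of all genes tested read above on every deletion array. Its interval, -0.075 to 0.25, included 0. COX9, another small membrane subunit, read 3250.3, 2707 and 2914 in the deletion and 3033, 2819 and 2596 in wild type, with overlapping groups (log2 difference 0.069 (SE 0.10), and -0.00097 without deletion culture 1). COX4, the subunit that binds zinc, differed by 0.030 (SE 0.079) and COX6, on the matrix side, by 0.051 (SE 0.089). COX12 and COX13, peripheral subunits, differed by 0.018 (SE 0.074) and -0.0028 (SE 0.072).

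Subunit 5 of complex IV is made in alternative forms, COX5A in air and COX5B under low oxygen. COX5A read 3576, 3212 and 3234 in the deletion, against 3406, 3394 and 3067 in wild type, a log2 difference of 0.022 (SE 0.084), or -0.014 after median centring and -0.028 to 0.0498 without single arrays, negative without deletion culture 1 or wild-type culture 3. COX5B read 773, 648 and 606 in the deletion, against 516, 627 and 697 in wild type, a log2 difference of 0.14 (SE 0.15) with an interval of -0.21 to 0.49. Both pairs of groups overlapped. The genotypes differed in opposite directions across the pairs for COX5B, by 0.58, 0.048 and -0.20, and within replicates 2 and 3 the difference was -0.077. Its deletion value was the highest and its wild-type value the lowest of all 6 in replicate 1, and in replicate 3 the deletion lay below wild type.

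Over all arrays ATP synthase genes lay closest to equality by median, an order that changed with the version. Within replicates 2 and 3 alone complex IV was nearer, at -0.0075 against 0.028 for the ATP synthase. The enzyme has a catalytic F1 head in the matrix, a membrane sector through which protons pass, and stalks that join them. The 12 genes had log2 differences from -0.092 to 0.081 with a median of 0.029 (-0.0074 after median centring), 8 positive and 4 negative. Over all genes tested 50.4% were positive. All 12 were under 0.1 in size, and all 12 intervals lay within 0.5 of 0. The groups overlapped for each of them, and 0 had an unadjusted p under 0.05.

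Of the F1 subunits, ATP2, the catalytic beta subunit, had the largest difference in size. It read 4889, 4114 and 4281 in the deletion, against 5090.4, 5207 and 3930.2 in wild type. Wild-type culture 3 was the lowest of the 6 and wild-type cultures 1 and 2 the highest, so the difference of -0.092 (SE 0.13) was within the spread and ran from -0.22 to -0.019 without single arrays, its extremes being those without wild-type culture 3 and wild-type culture 2. ATP1, the alpha subunit, was likewise lowest in wild-type culture 3 and differed by -0.025 (SE 0.10). The rotor subunits ATP3, ATP16 and ATP15 (gamma, delta and epsilon) differed by 0.021 (SE 0.068), -0.0054 (SE 0.069) and 0.039 (SE 0.075). The 5 F1 genes had a median of -0.0054.

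The 7 stalk and membrane genes had a median of 0.038, with 6 positive, against 50.4% of all genes tested. After median centring ATP5 and ATP7 turned negative, and ATP14, the median gene, was at 0.0017. ATP4, a peripheral stalk subunit, read 3334, 3514 and 3466 in the deletion, against 3131, 3233 and 3386 in wild type, and was higher in each pair (log2 difference 0.081 (SE 0.071)). ATP18, of the membrane sector, read 2516, 3013 and 2972 in the deletion, against 2442, 2850.0 and 2757 in wild type, also higher in each pair (log2 difference 0.077 (SE 0.11), or 0.011 without wild-type culture 1). ATP14, of the stalk, read 2561, 2623 and 2461 in the deletion and 2509, 2432 and 2505 in wild type (log2 difference 0.038 (SE 0.068)). The other stalk genes ATP5 and ATP7 differed by 0.013 (SE 0.078) and 0.036 (SE 0.082). ATP17, of the membrane sector, scattered most of the 12, at 2255, 3189 and 2555 in the deletion and 2451, 2769 and 3188 in wild type. It was lowest on the replicate 1 array of each genotype and differed by -0.078 (SE 0.16). ATP20, which takes part in joining enzymes into dimers, differed by 0.050 (SE 0.11).

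Differences between replicate numbers were as large as those between genotypes in these genes. Replicate 1 arrays minus the other 4 gave log2 differences from -0.31 for ATP17 to 0.39 for QCR7, with a median of 0.031. The genes varied over the 6 arrays by a median range of 0.23 on the log2 scale, against 0.36 over all genes tested. Across the 38 genes, the differences in pairs 1 and 2 correlated at 0.36 (Pearson), those in pairs 1 and 3 at 0.0099 and those in pairs 2 and 3 at 0.27. Over all 5402 genes these correlations were 0.40, 0.21 and 0.20. The points are genes that share the same arrays, so the values are a description. A limma fit with genotype, batch (replicate 1 against replicates 2 and 3) and their product asked whether the genotype difference itself differed between replicate 1 and the others. It called 0 of the 38 and 0 of 5402 genes (0.0%). At an unadjusted p under 0.05 it gave 3 of the 38, against 6.63% of all genes. They were COX5B (limma adjusted p = 0.561) and QCR10, where the deletion's excess was larger in replicate 1, and NDE2, where it was larger in replicates 2 and 3.

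**Figure D4:**
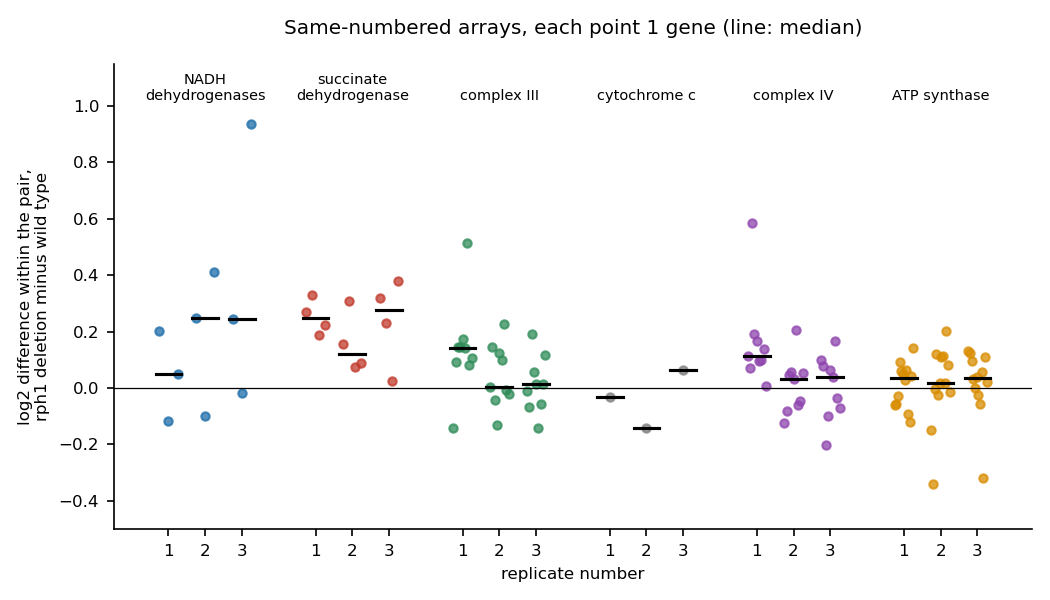
Log2 difference between the deletion and wild-type array of the same replicate number, for each gene (points) and as the median of each complex (lines). Succinate dehydrogenase lies above 0 in every pair, complexes III and IV lie highest in pair 1, and ATP synthase genes centre near 0 in every pair.

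Genes that act with these subunits were described from 9 further lists with measured genes. The 8 protein-coding genes of mitochondrial DNA were not analysed here. Of 15 other subunits, homologs and regulatory proteins, 13 were measured, 12 were higher in the deletion with a median of 0.20, and 5 (38.5%) had an unadjusted p under 0.05, all higher. Over all genes tested, 50.4% were higher and 4.33% were higher at that p. The median of the list was 0.075 within replicates 2 and 3 and 0.11 without wild-type culture 1. SDH6, encoding an assembly factor of succinate dehydrogenase, read 531, 480.4 and 526 in the deletion, against 313, 327 and 405 in wild type. The groups did not overlap, and the log2 difference of 0.56 (SE 0.12) did not pass (limma adjusted p = 0.338). STF1, whose product binds F1 and helps to keep the enzyme from hydrolysing ATP, read 1414, 1401 and 1376 in the deletion, against 919, 983 and 1154 in wild type. Here too the groups did not overlap (log2 difference 0.46 (SE 0.10), limma adjusted p = 0.366).

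Some further genes of that list are named after their values were seen, because they belong to the same enzymes. Of the other assembly factors of succinate dehydrogenase, SDH5, needed for attaching flavin to Sdh1, differed by 0.24 (SE 0.088) and SDH7 by 0.084 (SE 0.075). SHH4, a homolog of the anchor gene SDH4, averaged 189.6 ± 31.5 in the deletion and 132 ± 27.5 in wild type (SD, n = 3 each). Its log2 difference was 0.53 (SE 0.18). SHH4 did not pass over all arrays (limma adjusted p = 0.681) and did with the batch as a term (0.0400), a fit that called 0.629% of all genes. INH1, encoding the main inhibitor of ATP hydrolysis by F1, differed by 0.23 (SE 0.090). Of these 4, 0 passed over all arrays by limma. At an unadjusted p under 0.05, 3 were higher, against 4.33% of all genes, but the 4 were chosen with their values known. SHH3, STF2, RCF1 and RCF2 of the same list differed by 0.20 (SE 0.26), 0.041 (SE 0.15), 0.0097 (SE 0.15) and -0.041 (SE 0.13). The groups overlapped for each of them. TIM11 and ATP19, encoding further small membrane subunits of the ATP synthase, differed by 0.20 (SE 0.16) and 0.069 (SE 0.30), and ATP19 was negative without deletion culture 2, deletion culture 3 or wild-type culture 1.

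The assembly genes leaned the same way by small amounts. For complex IV assembly and expression of its mitochondrial genes, 20 of 28 were higher with a median of 0.074, and 4 (14.3%) had an unadjusted p under 0.05, all higher, against 50.4% and 4.33% of all genes tested. The median was 0.13 without wild-type culture 2. PET117, encoding an assembly factor, read 267, 226 and 224 in the deletion, against 167, 165 and 166 in wild type. All deletion values lay well above the wild-type values, which were nearly equal. PET117 differed by 0.52 (SE 0.091), with a limma adjusted p of 0.295 (or 0.0400 with the batch as a term). PET54, which promotes translation of the mitochondrial COX3 mRNA, read 1309, 1164 and 1161 in the deletion, against 911, 910.3 and 937 in wild type, also without overlap (log2 difference 0.40 (SE 0.079)). For complex III assembly, cytochrome maturation and COB expression 10 of 12 were higher with a median of 0.13. CBP4, an assembly factor, read 481, 529 and 499 in the deletion, against 408, 442 and 432 in wild type (log2 difference 0.24 (SE 0.076)), and BCS1, which inserts the Rieske protein, differed by 0.14 (SE 0.067). For ATP synthase assembly and expression 10 of 12 were higher with a median of 0.10. ATP10, which assists assembly of the membrane sector, differed by 0.23 (SE 0.11) and ATP25, needed for the mRNA of a mitochondrially encoded subunit, by 0.16 (SE 0.085).

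For synthesis of ubiquinone, the carrier between the dehydrogenases and complex III, 9 of 10 genes were higher, against 50.4% of all genes tested, with a median of 0.18. It was 0.068 without deletion culture 1, and 0.26, 0.10 and 0.15 in pairs 1, 2 and 3. COQ4, which organises the synthesis complex, read 918, 776 and 853 in the deletion, against 741, 703 and 659 in wild type, without overlap (log2 difference 0.27 (SE 0.093)). COQ1, which makes the side chain, read 1405, 1223 and 1296 in the deletion and 1268, 1157 and 1018 in wild type, with overlap (log2 difference 0.19 (SE 0.11)). Heme synthesis was balanced, with 4 of 8 genes higher and a median of -0.011, which ran from -0.051 to 0.044 without single arrays and was above 0 without deletion culture 3, wild-type culture 1 or wild-type culture 2. HEM1, encoding its first enzyme, differed by -0.13 (SE 0.13), or 0.0016 without wild-type culture 1, and HEM12, encoding uroporphyrinogen decarboxylase, by 0.085 (SE 0.076). Of the 6 genes for electron entry from lactate, glycerol phosphate and other donors 4 were higher, with a median of 0.029 that turned to -0.0071 after median centring and -0.0078 after quantile normalization, and was -0.019 without deletion culture 3. DLD3, a cytosolic hydroxyglutarate transhydrogenase gene, differed by 0.19 (SE 0.082) and MCR1, a mitochondrial NADH-cytochrome b5 reductase gene, by 0.15 (SE 0.073).

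Regulators known to set the level of respiratory genes had a small median difference. Of 14 measured, 11 were higher, against 50.4% of all genes tested, with a median of 0.031 (-0.0051 after median centring). That median ran from 0.028 to 0.11 without single arrays. None had an unadjusted p under 0.05 (0 genes). HAP4, the regulated activating subunit of the Hap2/3/4/5 complex, named after its value was seen, differed by 0.049 (SE 0.25) and was negative without deletion culture 1, wild-type culture 2 or wild-type culture 3. SNF1, the kinase needed for growth on carbon sources other than glucose, differed by 0.16 (SE 0.070) and HAP5, a DNA-binding subunit of the Hap complex, by 0.19 (SE 0.10). Of 8 hypoxic genes, 2 were higher and the median was -0.14 (0.031 without wild-type culture 1). TIR2, a cell wall mannoprotein gene, read 106, 135 and 109 in the deletion, against 119, 151 and 165 in wild type (log2 difference -0.31 (SE 0.16)). DAN1, of the same kind, read near background at 8.58, 10.1 and 10.6 in the deletion and 8.26, 14.8 and 16.2 in wild type. Of the 111 tested genes on the 9 lists, 0 passed over all arrays by limma, and 11 (9.91%) had an unadjusted p under 0.05, all higher in the deletion, where 4.33% of all genes were higher and 1.0% lower at that p. With array weights 9 of the 111 passed, all higher, in the fit that called 3.74% of all genes. They were SDH6, STF1, SHH4, PET117, PET54, ATP10 and, chosen after their values were seen, SCO2, PET100 and COA4, which act in complex IV assembly. With the batch as a term 2 passed (SHH4 and PET117), and with the replicate block 0. In whole cultures scaled to a common level, a difference in RNA per cell and a difference in the make-up of the culture cannot be told apart.

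**Figure D5:**
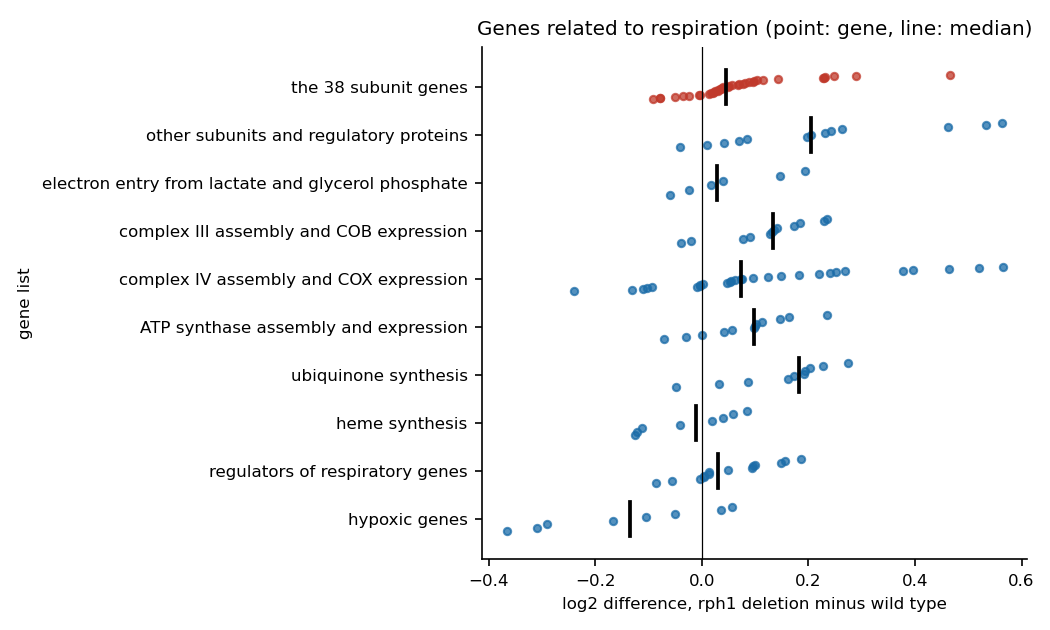
Log2 difference, rph1 deletion minus wild type, of each measured gene (points) and the median of each list (lines), with the 38 subunit genes at the top. The assembly, ubiquinone and other-subunit lists have medians above that of the 38 genes, and the hypoxic list lies below 0.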

How the data were processed

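Total RNA from 6 cultures, 10 µg each, was labelled and hybridised to 1 Affymetrix array per culture, per the labels' protocols. The authors deposited 1 linear signal intensity for each probe set and array, summarised by MAS5 per the submitters' processing notes. Neither its version nor its scaling target is given in the sources used here. On every array the intensities had a 2% trimmed mean of 500.2, so the values were taken as already scaled.

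Of 10928 probe sets, 5498 matched 1 S. cerevisiae gene each (5449 genes) by gene identifier through the RefSeq table of assembly R64, used for names and gene order, and 1746 belong to fission yeast. The brightest probe set of a gene was kept, and 111 of 121 genes of the further lists matched. Genes were tested if their mean log2 signal over 6 arrays exceeded the 95th percentile of fission yeast means, 3.06, which kept 5402. The log2 signals were fitted with limma 3.58.1 in R 4.3.3 (lmFit, eBayes, genotype only, 2-sided), with Benjamini-Hochberg adjustment over 5402 genes and a threshold of 0.05. An exact permutation test of 3 against 3 arrays cannot go below p = 0.1 and was not used. The number of arrays limits the precision. Figures used matplotlib 3.10.9 in Python 3.11.15.

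The members and lists were chosen with earlier results of these data known. Values on every array are given for up to 4 genes of each complex with the smallest unadjusted p, for NDE1 and NDE2, COX5A and COX5B, CYC1 and CYC7, and for RPH1. Up to 2 genes of each further list, those with the smallest unadjusted p, are named. QCR7 and ATP17 were added for their spread between replicates after their values were seen. Other genes are given by their difference alone.

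To check whether replicate numbers pair the arrays, each gene's deviation from its group mean was correlated across all tested genes. The correlation was 0.768, 0.454 and 0.415 for numbers 1, 2 and 3. As each exceeded 0.1, values are also given by same-numbered pair and with a block, while the reported fit is unpaired. This pairing rests on the data, not the labels, and mainly on replicate 1, whose arrays also carry another form of sample code. Deletion culture 2 correlated more with wild type 3 (0.535) than with wild type 2, and deletion culture 3 more with wild type 2 (0.471) than with wild type 3. Deviations from a group mean cancel out over its 3 arrays. A replicate 1 that stands apart therefore raises every correlation among replicates 2 and 3. The check cannot show which of these arrays belong together. Alternatives were other normalizations, an offset, no filter, a block, a batch term, array weights, an intensity trend, averaged probe sets and leaving out arrays.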

Additional observations from a re-analysis of the deposited data

How the results depend on the processing

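No gene of the 38 passed (0 genes) under quantile normalization, median centring, an offset of 32, no filter, the replicate block, the batch term, replicates 2 and 3 only, an intensity trend, averaged probe sets or without any single array, and 3 (NDI1, NDE2 and SDH2) passed with array weights. The array weights did not converge fully, and called 202 of all genes. For all genes, 2 as reported became 1 with quantile normalization, the offset or the trend, 6 with the replicate block, 34 with the batch term, and 1 to 2 without single arrays. The block changed no other call given here. Of the 38, 25 to 32 were higher without single arrays, with medians of 0.034 to 0.072, and median centring brought the median to 0.0086 while the distance to all genes stayed at 0.043. With array weights that distance was 0.018 and with quantile normalization 0.067. The genotype by batch fit called 0 of the 38 in each version run.

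Of the 38 genes 19 had the opposite sign in at least 1 version, and the 95% interval of all 19 included 0 over all arrays. Quantile normalization turned 3 (COX13, ATP1 and ATP16). Median centring turned 9 (QCR7, QCR9, CYT1, COX4, COX5A, COX12, ATP3, ATP5 and ATP7), replicates 2 and 3 turned 9 (QCR7, QCR9, COX4, COX5A, COX5B, COX6, COX12, ATP5 and ATP16), and array weights turned 10. Leaving out single arrays turned 18 in all, 11 of them without deletion culture 1. The other versions turned 0. Values follow for the medians, for genes named by rank in p, and for COX5A, COX5B, CYC1 and CYC7. Median centring shifts every gene alike. For the other versions the cause was not tested. Within replicates 2 and 3 the medians became -0.0075 for complex IV and 0.014 for heme synthesis, and the differences became -0.077 for COX5B, -0.0016 for COX5A and -0.0996 for CYC7. Median centring gave -0.0074 for ATP synthase, -0.0071 for electron entry, -0.0051 for regulators and -0.014 for COX5A, and quantile normalization gave -0.0078 for electron entry. Array weights gave 0.014 for heme synthesis, -0.052 for COX5A and -0.027 for CYC7. Without deletion culture 1 the differences were -0.028 for COX5A, -0.00097 for COX9 and -0.24 for CYC7. Without deletion culture 2, CYC1 was 0.0048. Without deletion culture 3, electron entry was -0.019 and heme synthesis 7.12e-05. Without wild-type culture 1, hypoxic genes were 0.031, heme synthesis 0.044 and HEM1 0.0016. Without wild-type culture 2, heme synthesis was 0.0024, and without wild-type culture 3, COX5A was -0.027. Array weights also brought SDH6 (adjusted p = 0.0159), STF1 (0.0131), PET117 (0.0125), PET54 (0.0131) and ATP10 (0.0440) below the threshold. Over all single arrays left out, values ran from -0.028 to 0.0498 for COX5A, -0.00097 to 0.13 for COX9, -0.24 to 0.53 for CYC7, -0.079 to 0.0048 for CYC1, -0.23 to 0.0016 for HEM1, -0.019 to 0.087 for electron entry, -0.051 to 0.044 for heme synthesis and -0.26 to 0.031 for hypoxic genes.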
